A study of Mus musculus with 4 samples.

Results

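The data described here cover 42 genes of the mouse X chromosome that start between 70 and 80 Mb (genome build mm9), a stretch that is dense with genes in its first part. They were chosen by position and read support, as those of the 100 genes listed there for which every one of the 4 libraries held 20 or more reads assigned to an allele, apart from Idh3g and Rpl10. Of the rest, 56 had fewer reads in at least 1 library, and 37 of these had none in any. The whole table lists 22686 genes, 952 of them X-linked, and 341 X-linked genes had enough reads.

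RNA was sequenced from female epiblast stem cells (EpiSCs), pluripotent cells of the post-implantation epiblast, labelled E6.5. By the strain label, C57BL6/J was crossed with an F1 of JF1 and C57BL6/J, so reads over variants between these strains could be given to a parent. Cells were Smchd1 +/+ or Smchd1 MD1/MD1, each with XistdeltaA/+ or Xist1lox/+, so all cells, the +/+ ones included, carried 1 mutant Xist allele. Each of the 4 combined genotypes had 1 library, so no difference within an Xist background has a replicate check, and only the models over all 4 libraries set both Xist backgrounds side by side. A difference of genotype and a difference between the lines or cultures sequenced cannot be told apart.

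In female mammals 1 X chromosome is silenced by Xist, a long noncoding RNA that coats the chromosome from which it is transcribed. SmcHD1 is a chromosomal protein of the inactive X that helps to keep its genes silent. Reads from the silenced chromosome can be told apart only where the parental alleles differ in sequence, and the share of reads from that chromosome is then the measure of its expression.

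The labels were checked first. Smchd1 had 27.0 and 20.9 FPKM (fragments per kilobase of transcript, scaled to sequencing depth) in the +/+ libraries with XistdeltaA/+ and Xist1lox/+, and 6.68 and 5.98 in the MD1/MD1 libraries. Xist was read from the paternal allele at 99.5% to 99.9%, so the paternal X was the one that expressed Xist in all libraries. Xist itself stood at 12.1 FPKM in +/+ and 38.3 in MD1/MD1 for XistdeltaA/+, and at 10.5 and 28.9 for Xist1lox/+, and its part in the results below was not tested. Allele-assigned reads totalled 7301034 to 8008500 a library, of which the 42 genes held 0.331% to 0.395%. The 10 epiblast marker genes on the marker list summed to 1228 to 1809 FPKM, with Pou5f1 at 551 to 984 and T, a gene of the primitive streak, at 0.218 to 0.465. Markers of other cells were present too. The sum of 8 fibroblast genes went from 42.4 FPKM in +/+ to 120 in MD1/MD1 for XistdeltaA/+, and from 57.3 to 57.9 for Xist1lox/+. The sum of 12 macrophage genes was 24.3 and 961 FPKM with XistdeltaA/+ and 340 and 310 with Xist1lox/+. Tyrobp, C1qa, C1qb and Emr1 of the latter list were at 0 in the +/+ XistdeltaA/+ library, but Cd68 was at 21.7 FPKM there and Cd14 at 1.16. Lyz2 alone had 0.384 and 799 FPKM with XistdeltaA/+ and 274 and 247 with Xist1lox/+, +/+ first.

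The first comparison asked whether genes of this interval were read from the paternal X more often in MD1/MD1 cells. Paternal reads were rare in +/+ cells and more frequent, though still a minority, in MD1/MD1 cells. Over the 42 genes 1.05% (0.930 to 1.18) of 26296 reads were paternal in +/+ and 10.3% (9.92 to 10.6) of 31611 in MD1/MD1 with XistdeltaA/+. With Xist1lox/+ the pooled share was 2.24% (2.07 to 2.43) of 25886 reads in +/+ and 11.3% (10.9 to 11.7) of 26372 reads in MD1/MD1. Brackets after a share hold its exact 95% interval by the Clopper-Pearson method, which covers counting error alone. The difference was 9.21 points in the XistdeltaA/+ pair and 9.05 points in the Xist1lox/+ pair. Marker sums of other cells rose in the first pair and were nearly level in the second. The part of such cells in the paternal shares was not tested.

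1 gene weighed on the pooled +/+ values. Tmem47 alone gave 170 of the 276 paternal reads in +/+ XistdeltaA/+ and 477 of 581 in +/+ Xist1lox/+. Without it the pooled shares were 0.456% in +/+ and 8.13% in MD1/MD1 for XistdeltaA/+, and 0.444% and 8.37% for Xist1lox/+. The other 296 X-linked genes, leaving out Xist, Ftx and Jpx, pooled to 2.88% and 9.00%, and to 3.68% and 9.00%. The median gene of the interval had a share of 0% in either +/+ library, and of 5.61% and 6.48% in MD1/MD1. Its median rise was 4.67 and 6.33 points, against 2.72 and 2.33 points over all 341 X-linked genes. No test of this difference between gene sets was made.

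Gene by gene, the share was higher in MD1/MD1 for 37 of 42 genes with XistdeltaA/+ and for 35 with Xist1lox/+. A two-sided Fisher's exact test on paternal and maternal reads, with p-values adjusted by the Benjamini-Hochberg method over all 341 genes on the X, called 28 of the 42 genes higher with XistdeltaA/+, where 46% of all tested genes were called higher. With Xist1lox/+ it called 24 of 42, against 41.1% of all. In both pairs 22 of 42 genes were called higher, against 35.8% of all 341. None of the 42 was called lower in either pair at an adjusted p under 0.05, where 3.52% and 4.69% of all genes were called lower with XistdeltaA/+ and Xist1lox/+, and 2.05% in both. This test compares the sequenced libraries and not the conditions. Its calls also depend on read depth. The median of the 42 genes was 287.5 to 321 reads a library, and that of the other 299 X-linked genes 203 to 241. A model over all 4 libraries, edgeR's quasi-likelihood test of the allele by Smchd1 genotype term, called 23 of the 42 higher (31.1% of all 341) and 0 lower (1.17% of all). Of these 23 genes, 20 were among the 22 called by the read test. Plxna3, Tbl1x and Ubl4 were added, and Mtcp1 and Vbp1 were lost.

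**Figure D1:**
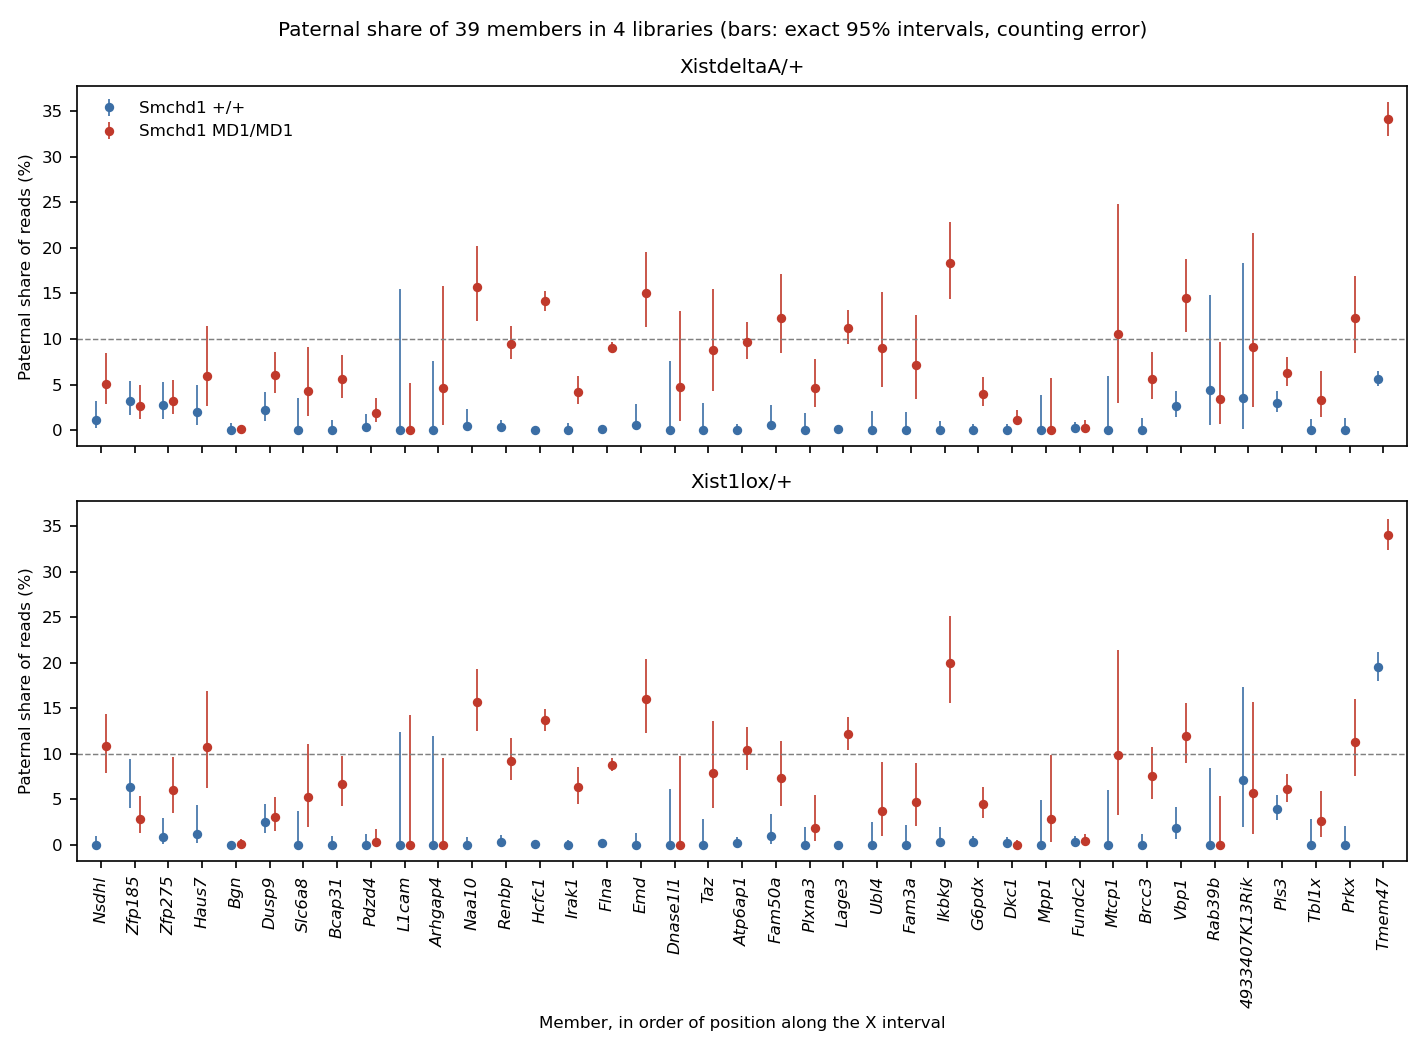
Paternal share of allele-assigned reads (%) for 39 of the 42 genes in order of position, with +/+ in blue and MD1/MD1 in red, XistdeltaA/+ above and Xist1lox/+ below. Points are single libraries, bars are exact 95% intervals for counting error and the dashed line marks 10%. Most blue points lie at or near 0, and Tmem47 at the right end reaches 34.1% and 34.0% in MD1/MD1.

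At a share of 10% or more, 0 and 1 of the 42 genes were found in the +/+ libraries with XistdeltaA/+ and Xist1lox/+ (4.4% and 7.04% of all 341), and 10 and 12 in the MD1/MD1 libraries (23.8% and 25.8% of all). In both MD1/MD1 libraries and neither +/+ library 7 genes reached 10%, namely Naa10, Hcfc1, Emd, Lage3, Ikbkg, Vbp1 and Prkx, against 14.4% of all 341. The 22 genes called in both pairs had MD1/MD1 shares of 3.99% to 34.1% (median 9.59%) with XistdeltaA/+ and of 4.44% to 34.0% (median 9.62%) with Xist1lox/+. Apart from Tmem47, none of them was above 2.60% or 1.82% in the +/+ libraries.

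The sequences just upstream of the transcription start are shown for both ends of this range, since transcription of either allele starts from the promoter. Of the 42 genes, 36 matched RefSeq promoters (build GRCm38.p6), and the most upstream start of each was used. The 5 matched genes with the largest mean rise were Tmem47 (chrX:81070394-81070643, plus strand), Ikbkg (chrX:74393041-74393290, plus), Naa10 (chrX:73921945-73922194, minus), Emd (chrX:74254437-74254686, plus) and Hcfc1 (chrX:73966358-73966607, minus). Capitals mark CG dinucleotides, the sites of DNA methylation, in the 250 bases before the start, printed 5′ to 3′.
Tmem47: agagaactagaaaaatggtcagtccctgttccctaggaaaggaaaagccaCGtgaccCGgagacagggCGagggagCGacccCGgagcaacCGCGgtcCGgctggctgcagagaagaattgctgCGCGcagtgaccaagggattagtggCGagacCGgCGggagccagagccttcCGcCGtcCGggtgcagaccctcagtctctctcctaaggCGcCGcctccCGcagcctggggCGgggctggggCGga
Ikbkg: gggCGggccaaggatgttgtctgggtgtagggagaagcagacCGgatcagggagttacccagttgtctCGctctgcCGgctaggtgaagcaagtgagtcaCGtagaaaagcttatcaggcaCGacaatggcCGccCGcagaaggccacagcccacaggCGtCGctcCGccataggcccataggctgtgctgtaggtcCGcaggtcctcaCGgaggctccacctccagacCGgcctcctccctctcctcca
Naa10: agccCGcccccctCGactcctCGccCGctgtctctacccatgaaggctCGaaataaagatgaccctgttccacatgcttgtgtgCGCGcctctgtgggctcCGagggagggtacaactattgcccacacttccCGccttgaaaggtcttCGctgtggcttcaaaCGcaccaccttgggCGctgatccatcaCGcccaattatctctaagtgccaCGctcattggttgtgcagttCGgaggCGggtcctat
Emd: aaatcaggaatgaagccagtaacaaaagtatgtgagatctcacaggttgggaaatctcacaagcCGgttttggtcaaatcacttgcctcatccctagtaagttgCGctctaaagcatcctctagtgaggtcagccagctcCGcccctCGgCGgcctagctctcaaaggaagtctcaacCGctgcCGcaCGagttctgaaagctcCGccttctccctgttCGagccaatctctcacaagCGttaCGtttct
Hcfc1: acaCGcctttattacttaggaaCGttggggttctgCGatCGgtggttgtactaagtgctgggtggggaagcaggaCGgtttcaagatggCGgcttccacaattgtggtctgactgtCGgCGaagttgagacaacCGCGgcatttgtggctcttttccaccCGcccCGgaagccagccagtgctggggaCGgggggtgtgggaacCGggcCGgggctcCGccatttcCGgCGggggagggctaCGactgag

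The 3 genes with the smallest mean change among those with at least 300 reads in every library were Fundc2 (chrX:75382149-75382398, plus), Bgn (chrX:73483351-73483600, plus) and Dkc1 (chrX:75095604-75095853, plus), printed in the same way.
Fundc2: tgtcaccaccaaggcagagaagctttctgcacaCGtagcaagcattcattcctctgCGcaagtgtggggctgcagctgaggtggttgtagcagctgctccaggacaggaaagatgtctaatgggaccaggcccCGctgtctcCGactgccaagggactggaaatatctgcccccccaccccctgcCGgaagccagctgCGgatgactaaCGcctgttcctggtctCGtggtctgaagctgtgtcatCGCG
Bgn: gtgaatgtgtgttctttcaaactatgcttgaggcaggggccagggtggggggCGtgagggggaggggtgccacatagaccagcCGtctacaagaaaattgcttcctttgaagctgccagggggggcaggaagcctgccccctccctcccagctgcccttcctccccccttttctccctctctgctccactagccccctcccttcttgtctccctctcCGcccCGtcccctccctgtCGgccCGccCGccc
Dkc1: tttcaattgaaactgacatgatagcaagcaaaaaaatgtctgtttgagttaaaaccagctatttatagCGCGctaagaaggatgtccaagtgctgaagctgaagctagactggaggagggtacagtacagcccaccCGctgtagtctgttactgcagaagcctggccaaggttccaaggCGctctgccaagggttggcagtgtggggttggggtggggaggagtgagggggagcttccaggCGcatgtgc

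The 5 sequences of genes with a large rise hold 21, 14, 16, 12 and 19 CG dinucleotides in the order shown, and the other 3 hold 10, 7 and 5. Over all matched genes the separation was slight. The median was 15 for 19 matched genes called in both pairs and 12 for 17 that were not, with ranges of 4 to 22 and 4 to 36. It was 6 over the promoters of 27025 genes. The GC box GGGCGG, searched on both strands, was in 27 of 36 promoters (75%) against 33.0% of all. The ETS motif CCGGAAG was in 3 (8.33%, against 7.07% of all) and the YY1 motif GCCATNTT in 2 (5.56%, against 3.91%), those of Hcfc1 and Mtcp1. Sites of different motifs may share bases. These are matches of letters in a window, not measured binding. The 36 genes had passed a read minimum in every library, whereas the 27025 genes were taken whatever their expression. No baseline of expressed genes was computed, for motifs or for CG dinucleotides.

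Of the 42 genes, 11 were on the list of nuclear and chromatin proteins, which also holds the cytoskeletal gene Zfp185, and 7 of them rose in both pairs by the read test. The counts by role, here and below, stand beside 22 of all 42 genes, and 35.8% of all 341, called higher in both pairs. The role lists are small, and no test between them was made. Numbers in brackets after a gene's role are its first and last base on the X chromosome in mm9, and values are given for XistdeltaA/+ first and Xist1lox/+ second. Naa10, the catalytic subunit of a protein N-terminal acetyltransferase (71162209 to 71167283), had 1 paternal read of 239 and 0 of 405 in +/+. In MD1/MD1 its share was 15.7% (12.0 to 20.2) and 15.7% (12.4 to 19.4). The gene had 95.9 and 125 FPKM in the XistdeltaA/+ pair, +/+ first, and 144 and 171 in the other pair. Split by the share, the paternal allele gave 0.401 and 19.7 FPKM, then 0 and 26.8, while the maternal allele gave 95.5 and 105, then 144 and 144.

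Hcfc1, a co-regulator of transcription (71188131 to 71211696), had the firmest zero. It had 0 paternal reads of 3274 in +/+ XistdeltaA/+, which allows a share of up to 0.0916%, and 1 of 3450 in +/+ Xist1lox/+. Its shares in MD1/MD1 were 14.1% (13 to 15.3) and 13.7% (12.5 to 14.9). The adjusted p of Fisher's exact test was 1.48e-152 and 6.35e-144. The MD1/MD1 intervals of the pairs overlap, and both lie far above the +/+ values.

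Emd, which encodes the inner nuclear membrane protein emerin (71500026 to 71503232), went from 0.518% and 0% to 15.1% (11.3 to 19.5) and 16% (12.2 to 20.4). Lage3, a subunit of the KEOPS complex that modifies transfer RNA (71597501 to 71598957), went from 0.102% and 0% to 11.2% and 12.1%, on 983 to 1334 reads. Fam50a, a nuclear protein tied to splicing (71558372 to 71565488), went from 0.503% and 0.962% to 12.3% and 7.30%. For all 3 genes the share stayed under 1% in +/+ and was at least 7.3% in MD1/MD1.

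Brcc3, a deubiquitinase of DNA repair complexes (72661967 to 72701040), had no paternal read among 286 and 310 in +/+. In MD1/MD1 its share was 5.59% (3.40 to 8.59) and 7.55% (5.07 to 10.7).

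The other 4 genes of this group were not called in both pairs. Dkc1, the pseudouridine synthase dyskerin (72341193 to 72355115), rose from 0% to 1.15% (0.525 to 2.16) with XistdeltaA/+, while in the Xist1lox/+ pair it had 1 paternal read of 667 in +/+ and 0 of 745 in MD1/MD1. Brcc3 had higher MD1/MD1 shares than Dkc1 on fewer reads. Tbl1x, a subunit of a nuclear corepressor complex, was at 0% and 3.33% in the XistdeltaA/+ pair, where it passed, and at 0% and 2.59% in the other. Zfp275, a zinc finger gene, was at 2.70% and 3.23% in the first pair and rose from 0.810% to 6.04% in the second. Zfp185, whose product is a LIM protein of the actin cytoskeleton rather than a nuclear factor, was at 3.16% and 2.62%, then at 6.32% and 2.87%. It is the gene with the largest drop of the 42, and the drop did not pass (Fisher's exact test, adjusted p = 0.0852 with Xist1lox/+).

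Among 6 signalling genes, 3 rose in both pairs. Ikbkg, the regulatory subunit of the IkB kinase complex of NF-kB signalling (71638630 to 71699117), had 0 paternal reads of 353 and 1 of 286 in +/+. Its shares in MD1/MD1 were 18.4% (14.4 to 22.9) and 20% (15.5 to 25.1). They are higher than the shares of the other 20 called genes apart from Tmem47. Its FPKM was low, 3.72 and 3.69 in the XistdeltaA/+ pair and 2.82 and 3.49 in the other. Prkx, a kinase related to protein kinase A (75007374 to 75041299), had no paternal read among 276 and 179 in +/+ and its MD1/MD1 shares were 12.3% (8.48 to 16.9) and 11.3% (7.58 to 16). Irak1, a kinase downstream of Toll-like and interleukin-1 receptors (71259253 to 71269260), rose from 0% to 4.23% and from 0% to 6.33%. Irak1 and Ikbkg act in the same pathway, and their paternal shares differed beyond the intervals in both MD1/MD1 libraries.

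Dusp9, a phosphatase of MAP kinases (70884780 to 70888853), rose from 2.24% to 6.01% in the XistdeltaA/+ pair and was at 2.53% and 3% in the other. Mpp1, a membrane-associated scaffold, was at 0% in 3 libraries and at 2.82% in MD1/MD1 Xist1lox/+. Arhgap4, a GTPase-activating protein, was at 0% in 3 libraries and at 4.65% in MD1/MD1 XistdeltaA/+, on 29 to 47 reads.

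Among 10 genes of membrane, adhesion, cytoskeleton and matrix proteins, 2 rose in both pairs. Flna, the actin crosslinker filamin A (71468800 to 71491873), had more reads than the other 41 genes in every library, 5550 and 9155 in the XistdeltaA/+ pair and 5603 and 5640 in the other. Its paternal share went from 0.126% to 9.02% (8.44 to 9.63) and from 0.196% to 8.81% (8.08 to 9.58). The +/+ and MD1/MD1 intervals of Flna are far apart in either pair.

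Bgn, the matrix proteoglycan biglycan (70728974 to 70741275), stayed almost purely maternal. It had 0 paternal reads of 480 and of 875 in +/+, and 3 of 1778 and 1 of 873 in MD1/MD1, or 0.169% (0.0348 to 0.492) and 0.115% (0.0029 to 0.637). Its FPKM was highest in MD1/MD1 XistdeltaA/+, at 79.2, the library that also had the highest fibroblast sum, 120 FPKM. Whether its reads came from EpiSCs or from other cells was not tested. Bgn is also on a list of 16 genes known to escape X inactivation. Of the 14 measured genes on that list, 3 were called higher in both pairs (Shroom4, Utp14a and Ftx), against 35.8% of all 341 genes. None, or 0, were called lower, against 2.05% of all. In both +/+ libraries 7 of the 14 were at 10% or more. Of all 341 genes, 4.4% were at 10% or more in +/+ XistdeltaA/+ and 7.04% in +/+ Xist1lox/+.

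Haus7, a subunit of the augmin complex of the spindle (70682654 to 70704368), was at 1.98% and 5.97% in the first pair and at 1.23% and 10.7% in the second, where it passed the test. Pls3, an actin-bundling plastin (73030993 to 73120509), had paternal reads in all libraries, 2.99% and 6.26%, then 3.97% and 6.12%, and passed with XistdeltaA/+. Plxna3, a semaphorin receptor, was at 0% and 4.64% in the first pair, where it passed, and at 0% and 1.89% in the second. Slc6a8, the creatine transporter, was at 0% and 4.29%, then at 0% and 5.22%, on 97 to 140 reads, with adjusted p of 0.078 and 0.069 by Fisher's exact test. Pdzd4, a PDZ domain protein, reached 1.89% at most. Rab39b, a Rab GTPase, was at 4.35% and 3.41%, then at 0%, on 42 to 88 reads. L1cam, a neural adhesion molecule, had 0 paternal reads of 22, 70, 28 and 24, which allows a share of up to 13.6%, 4.29%, 10.7% and 12.5%.

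Of 8 genes of metabolism, peroxisomes and mitochondria, 6 rose in both pairs, against 22 of all 42 and 35.8% of all 341. Renbp, the renin-binding protein with N-acylglucosamine epimerase activity (71167460 to 71176189), went from 0.365% to 9.5% (7.78 to 11.5) and from 0.286% to 9.20% (7.08 to 11.7). G6pdx, the entry enzyme of the pentose phosphate pathway (71654825 to 71674500), went from 0% to 3.99% (2.62 to 5.79) and from 0.278% to 4.44% (2.95 to 6.40). Among called genes G6pdx had the smallest shares in both MD1/MD1 libraries.

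Nsdhl, a dehydrogenase of cholesterol synthesis (70163860 to 70203867), went from 1.09% to 5.11% and from 0% to 10.8%. Taz, the cardiolipin-remodelling enzyme tafazzin (71528057 to 71535490), went from 0% to 8.77% and from 0% to 7.86%. Fam3a went from 0% to 7.09% and from 0% to 4.68%. Mtcp1 (72650186 to 72661923) went from 0% to 10.5% (2.94 to 24.8) and from 0% to 9.80% (3.26 to 21.4), on 38 to 60 reads, with adjusted p of 0.0415 and 0.0419 by Fisher's exact test. The edgeR term did not call Mtcp1, with an adjusted p of 0.116.

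Fundc2, a protein of the outer mitochondrial membrane (72627738 to 72642497), held 1 to 3 paternal reads in each library, on 512 to 825 reads. Its shares of 0.242% and 0.195%, then 0.260% and 0.423%, do not separate the genotypes.

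Of 5 genes of the secretory pathway, protein folding and lysosomes, 3 rose in both pairs. Bcap31, a chaperone of the endoplasmic reticulum (70931522 to 70961514), had no paternal read among 332 and 373 in +/+ and reached 5.57% and 6.63% in MD1/MD1. Atp6ap1, an accessory subunit of the vacuolar proton pump (71542436 to 71550060), went from 0% to 9.68% (7.82 to 11.8) and from 0.156% to 10.4% (8.23 to 13). Vbp1, a subunit of the prefoldin chaperone (72759636 to 72780285), had paternal reads in +/+ already, at 2.60% and 1.82%, and was at 14.5% and 11.9% in MD1/MD1. The edgeR term gave Vbp1 an adjusted p of 0.0841. Ubl4, which acts in the delivery of tail-anchored membrane proteins, rose with XistdeltaA/+ from 0% to 8.96% and stood at 0% and 3.67% with Xist1lox/+. Dnase1l1, a DNase I-like enzyme, had 3 paternal reads of 64 in MD1/MD1 XistdeltaA/+ and none in the other 3 libraries.

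2 genes were on none of the role lists. Tmem47 encodes a membrane protein of cell junctions (78315983 to 78343214), and the next member lies 3275 kb away. Its paternal share was 5.58% (170 of 3049 reads) in +/+ XistdeltaA/+ and 19.6% (477 of 2438) in +/+ Xist1lox/+. In MD1/MD1 it was 34.1% (32.3 to 36.0) and 34.0% (32.3 to 35.7). The intervals of the MD1/MD1 libraries overlap, and the +/+ values lie 14 points apart. The paternal allele gave 2.42 and 11.5 FPKM in the first pair and 6.16 and 15.4 in the second, and the maternal allele 40.9 and 22.2, then 25.3 and 29.8. In the XistdeltaA/+ pair the rise of the share thus went with a lower maternal FPKM as well as a higher paternal one. 4933407K13Rik, a noncoding transcript beside Pls3, had shares of 3.57% and 9.09%, then 7.14% and 5.66%, on 28 to 56 reads.

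**Figure D2:**
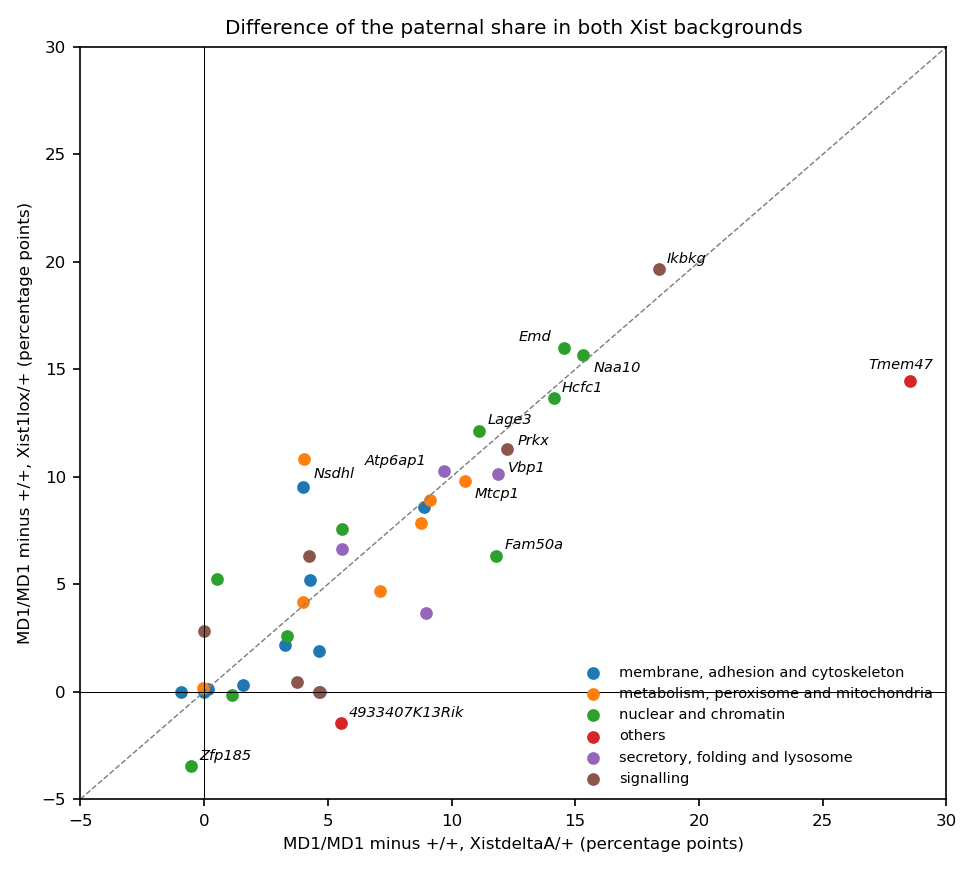
Difference of the paternal share (MD1/MD1 minus +/+, in percentage points) with XistdeltaA/+ on the x axis and Xist1lox/+ on the y axis, 1 point for each of 39 genes, coloured by role, with the dashed line marking equal differences. Ikbkg, Emd, Naa10 and Hcfc1 lie near that line above 13 points in both pairs, and Tmem47 lies far below it at 28.5 and 14.5 points.

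Genes with a larger rise in one Xist background tended to have a larger rise in the other. Across the 42 genes the differences had a Spearman correlation of 0.748 and a Pearson correlation of 0.782, given as a description, since the genes of a library share its preparation. A test of the difference between the log odds ratios of both pairs, adjusted over 341 genes, called only Tmem47 among the 42 (2.05% of all genes were called). Its adjusted p was 9.34e-36 in this normal test, which takes account of counting error only.

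The Xist mutations were also compared within each Smchd1 genotype, a comparison added after the data had been seen. In +/+ cells the paternal share was higher with Xist1lox/+ than with XistdeltaA/+ for 1 of the 42 genes, Tmem47 (Fisher's exact test, adjusted p = 3.81e-56), and lower for 0, against 5.28% and 1.47% of all 341 genes. In MD1/MD1 cells 0 of 42 were called higher and 0 lower, against 3.81% and 1.17% of all genes. Dkc1 came nearest in MD1/MD1 (adjusted p = 0.0714).

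Position within the interval was described by megabase. Between 71 and 72 Mb, 15 of 21 genes rose in both pairs, against 35.8% of all 341 genes, with median differences of 8.77 and 7.25 points. By the same measure, 2 of 9 genes rose between 70 and 71 Mb (median differences 3.99 and 5.23), and between 72 and 73 Mb, 3 of 8 (3.33 and 1.49). The last 4 genes are spread over the rest, and Prkx and Tmem47 of these rose. The mean difference of a gene and of the next one along the chromosome had a Spearman correlation of 0.201 over 41 neighbouring pairs, as a description.

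Among neighbours that start close together, the paternal shares of Fam3a and Ikbkg differed beyond their intervals, and those of the other pairs given here did not. By the mm9 coordinates, Fam3a and Ikbkg are transcribed away from each other from starts 151 bases apart. The RefSeq starts used for the promoters above can lie elsewhere. Fam3a was at 7.09% (3.45 to 12.7) and 4.68% (2.04 to 9.01) in MD1/MD1 and Ikbkg at 18.4% and 20%, so their intervals do not overlap in either library. In the pair Mtcp1 and Brcc3, with starts 43 bases apart, the shares were 10.5% and 5.59% with XistdeltaA/+ and 9.80% and 7.55% with Xist1lox/+. Both libraries gave overlapping intervals for this pair. For Dnase1l1 and Taz, 384 bases apart, they were 4.69% and 8.77%, then 0% and 7.86%. These intervals overlap too.

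Some of these values depend on how reads were given to overlapping genes. The span of Ikbkg covers all of G6pdx on the other strand, and the ends of Dkc1 and Mpp1 overlap by 44 bases. Arhgap4 and Ubl4 overlap other entries. The kit marks strand, but the sources used here do not say whether the counting used it. Without these 6 genes 20 of 36 were called higher in both pairs.

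The next comparison was of total expression. The median log2 ratio of FPKM + 1 (MD1/MD1 over +/+) was 0.083 with XistdeltaA/+ and 0.088 with Xist1lox/+, over the 40 genes with a mean of at least 1 FPKM, which leaves out L1cam and 4933407K13Rik. All 383 X-linked genes past that filter had medians of -0.055 and 0.070, and autosomal genes of -0.047 and 0.0019. Higher values in MD1/MD1 were found for 21 of 40 genes with XistdeltaA/+ and for 31 with Xist1lox/+. With limma, fitting Smchd1 genotype and Xist mutation over all 11471 genes, 0 of the 40 were called higher and 0 lower at an adjusted p under 0.05 (0.0174% of all genes were called in each direction). At an unadjusted p under 0.05 limma gave 1 of 40, against 3.26% of all genes. edgeR on allele-assigned reads called 0 of 42 and gave 0 at an unadjusted p under 0.05. The 1 gene was Pdzd4, with 34.6 and 50.3 FPKM in the first pair and 34.5 and 45.9 in the second (log2 ratios 0.52 and 0.40, limma adjusted p = 0.937). Pdzd4 is a gene with almost no paternal reads, and its maternal FPKM was 34.5 and 49.3, then 34.5 and 45.8.

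**Figure D3:**
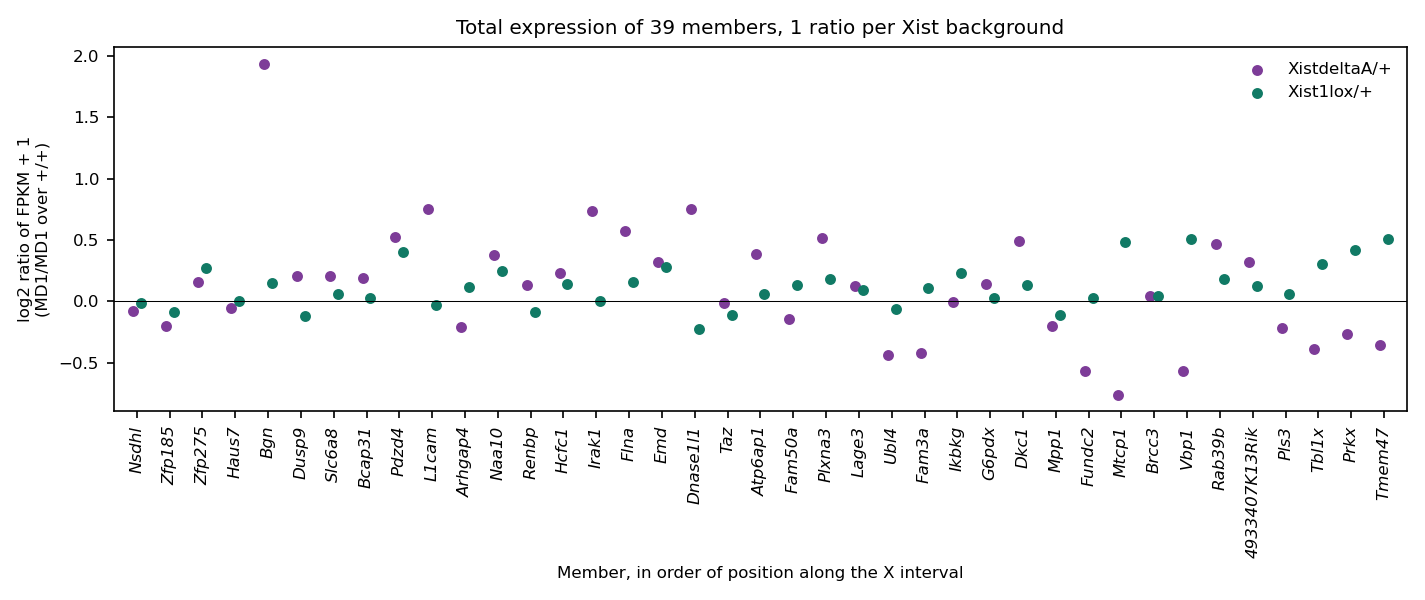
The log2 ratio of FPKM + 1 (MD1/MD1 over +/+) on the y axis for 39 of the 42 genes in order of position, XistdeltaA/+ in purple and Xist1lox/+ in green, 1 ratio per pair of libraries. Purple points range from -0.76 (Mtcp1) to 1.94 (Bgn) and green points from -0.22 to 0.51.

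The paternal FPKM of the 42 genes, each FPKM multiplied by its paternal share, summed to 11.8 and 129 in the first pair and to 14.2 and 140 with Xist1lox/+, or 10.9 and 9.84 times as much in MD1/MD1 cells. Without Tmem47 the ratios were 12.5 and 15.4. For the other 296 X-linked genes, again without Xist, Ftx and Jpx, the sums were 3.75 and 3.06 times as high. That set pooled to 2.88% and 3.68% paternal reads in +/+, with single genes at up to 46.5% and 98.1%. The ratios of both sets thus start from unlike +/+ levels. The maternal sums of the 42 genes were 1319 and 1333, then 1333 and 1351, or 1.01 times as high in both pairs. For the median gene the maternal FPKM was 0.983 and 0.991 times that of +/+.

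**Figure D4:**
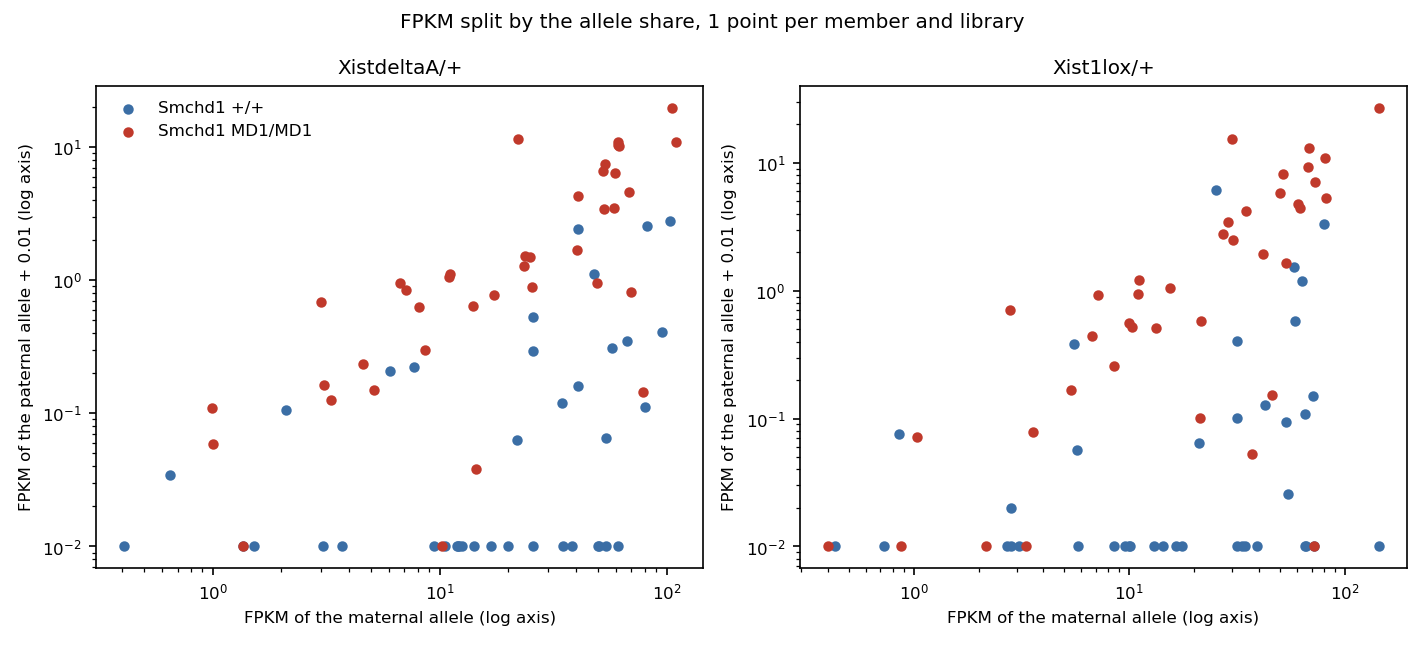
FPKM of the maternal allele (x axis) against FPKM of the paternal allele plus 0.01 (y axis), both on log axes, 1 point for each of 39 genes, +/+ in blue and MD1/MD1 in red, XistdeltaA/+ on the left and Xist1lox/+ on the right. Points on the bottom line have no paternal read, which holds for 21 and 22 blue points and for 2 and 5 red points.

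The XistdeltaA/+ pair held the widest changes of total expression. At 1.5-fold or more on the scale of FPKM + 1, Bgn, Irak1 and Dnase1l1 were higher in that pair (3 of 40, against 9.22% of all genes) and Mtcp1 was lower (1 of 40, against 9.29%). With Xist1lox/+ 0 of 40 were past 1.5-fold in each direction (1.57% and 1.62% of all). By FPKM with nothing added, the XistdeltaA/+ ratios of Plxna3 (1.57), Rab39b (1.56) and Fundc2 (0.660) were past 1.5-fold as well. Bgn had 19.9 and 79.2 FPKM in the XistdeltaA/+ pair and 33.2 and 37.0 in the other. Irak1 was at 10.5 and 18.1, then at 16.4 in both, and Dnase1l1 at 1.53 and 3.26, then at 2.70 and 2.18. Flna, with 80.8 and 121, then 71.1 and 79.6, and L1cam, with 0.407 and 1.36, then 0.432 and 0.399, were higher in the same library. The fibroblast and macrophage sums given above were also highest in MD1/MD1 XistdeltaA/+, with 8 of 8 and 11 of 12 of their genes higher than in its +/+ partner, against 4 of 8 and 5 of 12 with Xist1lox/+. Their part in these FPKM values, and in the paternal shares given above, was not tested. In RNA from bulk cells, fewer cells of a type and less RNA per cell cannot be told apart.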

How the data were processed

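For every gene and library the deposited table holds a count of reads assigned to an allele, the fraction of these reads that is paternal, and an FPKM value, per the file headers. The deposited fraction times the count was whole for 100% of values, within 1e-06, which gave the paternal reads. Build mm9, Cufflinks 2.2.1 and Cuffdiff are named in the submitters' processing notes. The aligner, the strain variants, the annotation and any scaling of FPKM by the authors were not given in the sources used here. Another 6 columns with values of other samples were left out. Gene starts are counted from 0 in the file, which was checked on the coding spans of 1097 olfactory receptor genes, and are printed counted from 1.

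Shares, exact intervals and Fisher's exact tests were computed with scipy 1.17.1. edgeR 4.0.16 fitted paternal and maternal counts of all 4 libraries, and limma 3.58.1 with a trend fitted log2(FPKM + 1) on Smchd1 genotype and Xist mutation, which leaves 1 residual degree of freedom. The test of log odds ratios added 0.5 to each count. The tests were checked on simulated data. Paternal reads were drawn there with counting error only, so the check does not cover spread between cell lines. A count of 0 allows a share of up to 3 reads of the total. The genes are named with values in all libraries where they were called in both pairs or reached 10%. Of the 42 genes, 3 are in all counts but are not reported here singly or plotted. The members, lists and tests were chosen with earlier results of these data known. Alternatives were other read minimums, thresholds, tests, weights, pseudocounts, filters and scalings.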

Additional observations from a re-analysis of the deposited data

Results flagged for a closer look

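Tmem47 was flagged because its change of the paternal share differed between the Xist backgrounds. The share rose by 28.5 points with XistdeltaA/+ and by 14.5 points with Xist1lox/+. The adjusted p was 9.34e-36 in the normal test of log odds ratios and 1.29e-38 in a likelihood ratio test of a logistic model, both of which take account of counting error only. The MD1/MD1 shares were 34.1% and 34.0%, so the difference lies in the +/+ libraries, at 5.58% and 19.6%. With 1 library per genotype, spread between cell lines of 1 genotype was not measured.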

How the results depend on the processing

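The number of genes that reach the share threshold depends on where it is set. It was 7 at 10%, 19 at 5% and 1 at 20%. With equal weight of genes the pooled differences of 9.21 and 9.05 points became 6.63 and 6.24, and without Tmem47, a choice made after seeing the data, they became 7.67 and 7.92. The 22 genes called higher in both pairs numbered 19 to 23 under other tests, read minimums and p thresholds, and 20 without genes of overlapping span, also chosen after seeing the data. No gene was called lower in both pairs under the other tests, minimums and p thresholds. With edgeR the call of 37 genes was the same, 3 were gained and 2 lost. No gene of the 42 was called for total expression under limma with another pseudocount, no filter or quantile normalization, or under edgeR, with 0 to 2 at an unadjusted p under 0.05. The median log2 ratio with XistdeltaA/+ was 0.083, and 0.13 with genes from 0.1 FPKM or 0.17 from allele-assigned reads scaled to the library total. Replicates could not be paired, because each combined genotype had 1 library. The Xist background, shared by the libraries of a pair, was a term of the limma fit reported. Leaving out 1 library of the models leaves no residual degree of freedom, so the values of each pair stand in its place. For genes with few reads a low share was not detectable. By the approximate limit of 3 reads, a count of 0 for L1cam allows up to 13.6%, 4.29%, 10.7% and 12.5% in the 4 libraries.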

Other observations

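Genes next to the read minimum were given by the smallest count over the 4 libraries. F8a and Slc10a3 lay just below it, with 17 and 19 reads in their lowest library, and L1cam and 4933407K13Rik just above it, with 22 and 28. F8a had no paternal read in the +/+ libraries and shares of 11.8% and 3.57% in MD1/MD1, on 17 and 28 reads. Slc10a3 had no paternal read in any library.

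The size of the rise was described against other properties of the 42 genes. Its mean over both pairs had a Spearman correlation of 0.381 with mean FPKM, of 0.235 with the lowest read count and of -0.106 with gene length. The 20 genes on the plus strand had a median mean rise of 6.44 points and the 22 on the minus strand 5.99. The 12 genes called in neither pair had a median of 52.5 reads in their lowest library, against 203 for 8 genes called in 1 pair and 285.5 for 22 called in both.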
